A study of Saccharomyces cerevisiae with 14 samples.

Results

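RNA that copurified with the deadenylase Ccr4 was set directly against RNA that copurified with the helicase Dhh1, without the mock immunoprecipitation (IP) as a reference. The comparison used 6 of the 14 libraries of the series, 3 from the Ccr4 IP and 3 from the Dhh1 IP, and every RNA of the count table, 5945 in all. RNAs were sorted into classes by the type given in the authors' table. Both proteins carried a myc epitope tag in the BY4741 strain of *Saccharomyces cerevisiae*. Cells of both groups were grown at 30° in rich medium, cross-linked with formaldehyde without a stress treatment, and the sheared, DNase-treated extract was precipitated with the same anti-myc antibody. The replicates were biological triplicates. Of the other libraries, 3 came from the same IP of untagged cells (UT IP), 3 from the Puf5 IP and 2 from the input of untagged cells. No input of the tagged strains was analysed here, so the level of an RNA in the tagged cells and its recovery with the protein cannot be told apart.

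Ccr4 is the main cytoplasmic deadenylase of yeast and shortens poly(A) tails as part of the Ccr4-Not complex. Dhh1 is a DEAD-box helicase that represses translation and promotes removal of the 5′ cap. It binds the scaffold subunit of Ccr4-Not and is found in P-bodies, the granules in which decapping factors collect. Deadenylation normally precedes decapping, so the proteins act on one decay pathway at different steps. The comparison asks which RNAs were recovered more with the deadenylase and which more with the helicase.

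Between 20536505 and 22895486 reads were counted per library, and the single rRNA row took 95.1% to 95.7% of them in the Ccr4 IP against 95.5% to 96.3% in the Dhh1 IP. Counts per mRNA were low, with medians of 102, 84 and 76 in the Ccr4 IP libraries against 82, 66 and 65 in the Dhh1 IP libraries. On the log2 scale the Ccr4 IP libraries correlated across mRNAs with each other at r of 0.93 to 0.94, the Dhh1 IP libraries at 0.95 to 0.96, and libraries of different IPs at 0.89 to 0.92. Replicates varied beyond counting noise, since chi-square over mRNAs exceeded its degrees of freedom 11.1 times among the Ccr4 IP libraries and 4.58 times among those of the Dhh1 IP. In some RNAs 1 library of a group lay more than 3 times above the next, in 18, 7 and 20 of the RNAs tested for the Ccr4 IP libraries 1, 2 and 3, and in 12, 4 and 2 for those of the Dhh1 IP.

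Differences are given as the log2 of Ccr4 IP over Dhh1 IP from the quasi-likelihood test of edgeR, with library sizes equal to all counted reads, and RNAs were called at a false discovery rate (FDR) under 5%. Of 4885 RNAs tested, 696 (14.2%) were higher in the Ccr4 IP and 139 (2.85%) were lower. All of the RNAs called lower were mRNAs, 139 of 4617 (3.01%), and 635 mRNAs (13.8%) were higher. The median mRNA had a log2 of 0.25. With TMM factors, which scale on the bulk of the RNAs rather than on totals that are almost all rRNA, this median shifted by -0.23 and was 0.02, and the split turned to 382 RNAs higher (7.82%) and 471 lower (9.64%), or 355 (7.69%) and 466 (10.1%) when mRNAs alone are counted. Both scalings called 382 of the same RNAs higher and 137 of the same RNAs lower, and no RNA was called in opposite directions. The number called also depended on single libraries. With TMM factors, 213, 214 or 229 were higher without Dhh1 IP replicate 1, 2 or 3, and 303 or 282 were lower without Dhh1 IP replicate 1 or 2. Under totals, without Dhh1 IP replicate 2 or 3, the count higher in the Ccr4 IP was 295 or 410. The count lower was 87 without Ccr4 IP replicate 2, and 66, 88 or 70 without Dhh1 IP replicate 1, 2 or 3.

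**Figure D1:**
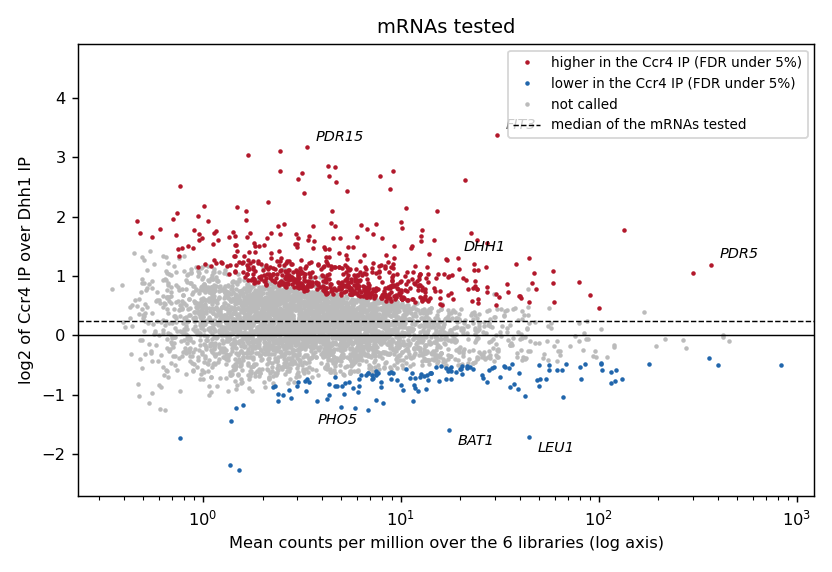
Each point is an mRNA tested, with its mean CPM (counts scaled to the library total) over the 6 libraries on a log axis and its log2 of Ccr4 IP over Dhh1 IP from edgeR with library totals; red and blue points were called at an FDR under 5%, and the dashed line is the median of 0.25. The 635 mRNAs called higher in the Ccr4 IP spread over most of the range of levels, while many of the 139 called lower are abundant.

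Over all mRNAs, 1163 (25.2%) had every Ccr4 IP library above every Dhh1 IP library and 389 (8.43%) every one below. Of those called under both scalings, 297 higher and 130 lower in the Ccr4 IP had no such overlap and averaged 50 counts or more. Under totals, 587 of the 635 mRNAs called higher and 135 of the 139 called lower had no overlap. The 12 with the highest and the 12 with the lowest log2 are described next, and lack of overlap was a condition for naming them. At the top stood *FIT3*, which encodes a cell wall mannoprotein that retains siderophore-bound iron. *FIT3* had 1491, 1070 and 1167 counts in the Ccr4 IP libraries and 131, 102 and 115 in the Dhh1 IP libraries. Its Ccr4 IP level was 55.7 ± 8.3 CPM (counts scaled to the library total) against 5.33 ± 0.60 CPM in the Dhh1 IP (SD, n = 3 each), a log2 of 3.37 ± 0.20 (SE, adjusted p = 9.3e-14). The groups were an order of magnitude apart, and the Dhh1 IP counts fell within the 55 to 149 counts of the UT IP libraries. Its neighbour on chromosome XV, *FIT2*, had 416, 360 and 289 counts with Ccr4 and 66, 31 and 54 with Dhh1 (log2 2.76 ± 0.25, adjusted p = 2.3e-09). *TIS11*, whose zinc-finger protein binds and destabilizes mRNAs of iron-using proteins when iron is short, had 322, 293 and 292 counts in the Ccr4 IP against 59, 32 and 45 in the Dhh1 IP (log2 2.68 ± 0.24, adjusted p = 2.3e-09). In both of these mRNAs too every Ccr4 IP library was above every Dhh1 IP library, as the rule for naming them required.

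Several of the other mRNAs at the top encode membrane transporters and metabolic enzymes. *PDR15*, for an ABC transporter of the pleiotropic drug resistance group, had 175, 123 and 107 counts with Ccr4 and 14, 8 and 19 with Dhh1 (log2 3.17 ± 0.33, adjusted p = 2.6e-08). *RSB1*, for a membrane protein that moves sphingoid bases, had 124, 90 and 81 counts in the Ccr4 IP against 15, 6 and 10 in the Dhh1 IP, with a log2 of 3.10. *PUT1*, for the proline oxidase that starts proline breakdown, had 194, 132 and 182 counts with Ccr4 and 25, 17 and 24 with Dhh1, with a log2 of 2.85. The Dhh1 IP counts of these 3 mRNAs were close to those of a UT IP library, which held 8 to 34 counts of *PDR15*, 6 to 14 of *RSB1* and 12 to 24 of *PUT1*. *BDH2*, next to the butanediol dehydrogenase gene and related to it, had 201, 184 and 163 counts in the Ccr4 IP against 35, 24 and 14 in the Dhh1 IP. *XBP1*, a transcriptional repressor induced by stress and starvation, had 121, 77 and 91 counts with Ccr4 and 12, 21 and 6 with Dhh1. *CIS1*, which acts in the response to blocked mitochondrial import, had 202, 102 and 68 counts in the Ccr4 IP against 22, 22 and 8 in the Dhh1 IP. Their log2 values were 2.84, 2.77 and 2.74, with adjusted p of 1.8e-08, 1.0e-06 and 3.0e-06.

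The remaining mRNAs of the top 12 drew much of their signal from 1 Ccr4 IP library and from 1 segment of the gene, when each gene is divided into 3 of equal length. *PCL5*, for a cyclin of the kinase Pho85, had 334, 349 and 1742 counts in the Ccr4 IP against 134, 135 and 118 in the Dhh1 IP. In Ccr4 IP replicate 3, 1548 of the 1742 counts lay in the 5′ segment, and without that library the log2 was 1.37 in place of 2.61. *MSO1*, for a protein of the secretory vesicle docking machinery, had 64, 383 and 45 counts with Ccr4 and 32, 20 and 22 with Dhh1, with 349 of the 383 in the 3′ segment. *MTE1*, for a protein of telomere maintenance, had 289, 37 and 30 counts in the Ccr4 IP against 24, 20 and 9 in the Dhh1 IP, with 251 of the 289 in the 5′ segment. Without the high library *MSO1* had a log2 of 1.06 (adjusted p = 0.052) in place of 2.68, and *MTE1* of 0.89 (adjusted p = 0.17) in place of 2.63. The 9 mRNAs described before them kept a log2 of at least 2.23 with any library left out.

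At the other end the differences were smaller. *LEU1*, for the isopropylmalate isomerase of leucine synthesis, had 477, 485 and 423 counts in the Ccr4 IP libraries and 1778, 1269 and 1404 in the Dhh1 IP libraries. Its level of 20.8 ± 1.7 CPM in the Ccr4 IP against 68.0 ± 10 CPM in the Dhh1 IP (SD, n = 3 each) gave a log2 of -1.71 ± 0.17 (SE, adjusted p = 2.6e-08). The UT IP held 999, 1192 and 1190 counts of *LEU1*, so the Ccr4 IP was below it and the Dhh1 IP above it. *BAT1*, for the mitochondrial branched-chain aminotransferase, had 209, 214 and 154 counts with Ccr4 and 654, 505 and 553 with Dhh1 (log2 -1.59 ± 0.19, adjusted p = 7.0e-07), with 448 to 490 in the UT IP. *PHO5*, for the secreted acid phosphatase, had 93, 91 and 84 counts with Ccr4 against 218, 193 and 214 with Dhh1, and 126, 166 and 129 in the UT IP (log2 -1.25 ± 0.22, adjusted p = 1.5e-04). In each of these 3 mRNAs the UT IP libraries lay between the IPs.

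The rest of the lowest 12 had log2 values from -1.22 to -1.04. *AGA1*, the anchor subunit of a-agglutinin in mating, had 68, 52 and 81 counts in the Ccr4 IP against 171, 158 and 129 in the Dhh1 IP. *BAR1*, for the protease that degrades alpha-factor, had 170, 160 and 154 counts with Ccr4 and 399, 346 and 284 with Dhh1. The ribosomal protein mRNAs *RPL14B* and *RPS18B* had 97 to 130 and 60 to 62 counts in the Ccr4 IP, and 225 to 265 and 101 to 153 counts in the Dhh1 IP. Both have a paralog of similar sequence, and how reads shared by paralogs were counted is not given in the sources used here. *FUR1* (uracil phosphoribosyltransferase), *SAM3* (an S-adenosylmethionine permease) and *TAF10* (a subunit of TFIID and SAGA) were lower in the Ccr4 IP, with a log2 of -1.09 each. *RPA12*, for a subunit of RNA polymerase I, and *ATO3*, for a putative ammonium exporter, depended on a library. *ATO3* had 73, 79 and 83 counts in the Ccr4 IP against 330, 120 and 99 in the Dhh1 IP, and without Dhh1 IP replicate 1 its log2 was -0.54 (adjusted p = 0.17) in place of -1.22. *RPA12* had a log2 of -0.82 (adjusted p = 0.095) in place of -1.04 without the same library.

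**Figure D2:**
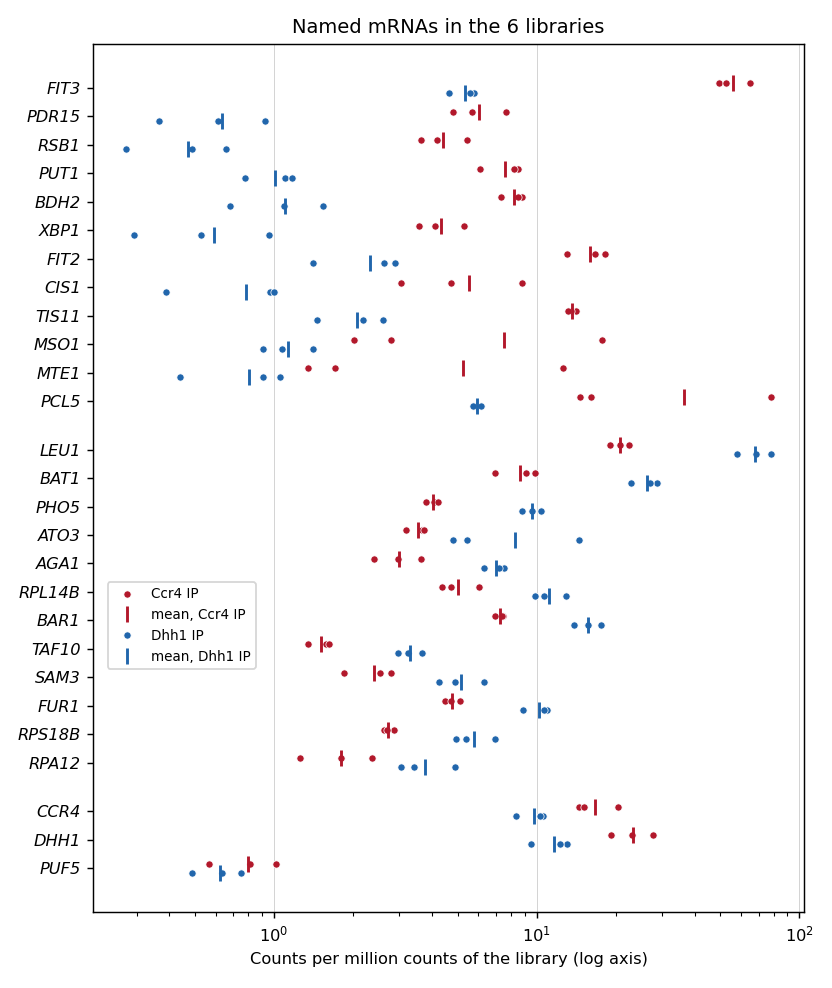
CPM, on a log axis, for the 12 mRNAs with the highest log2, the 12 with the lowest and the genes of the tagged proteins; points are the 3 Ccr4 IP and 3 Dhh1 IP libraries and vertical ticks their means. *FIT3* averaged 55.7 CPM in the Ccr4 IP against 5.33 in the Dhh1 IP, *LEU1* averaged 20.8 with Ccr4 and 68.0 with Dhh1, and single high Ccr4 IP libraries stand out for *MSO1*, *MTE1* and *PCL5*.

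The mRNAs of both tagged proteins were higher in the Ccr4 IP under totals. *DHH1* mRNA had 633, 414 and 513 counts in the Ccr4 IP and 296, 210 and 253 in the IP of Dhh1 itself (log2 1.00 ± 0.19, adjusted p = 5.3e-04). The UT IP held 234 to 252 counts of *DHH1*, which overlaps the Dhh1 IP. *CCR4* mRNA had 331, 328 and 455 counts with Ccr4 and 241, 183 and 212 with Dhh1 (log2 0.77 ± 0.20, adjusted p = 0.0068), against 90 to 136 in the UT IP. With TMM factors *DHH1* was called (log2 0.77, adjusted p = 0.0022) and *CCR4* was not (log2 0.57, adjusted p = 0.051). *CCR4* was also not called under totals without Dhh1 IP replicate 2 (log2 0.67). *PUF5* (*MPT5*) had 13, 22 and 18 counts in the Ccr4 IP against 17, 14 and 10 in the Dhh1 IP, and the groups overlapped (log2 0.33 ± 0.48, adjusted p = 0.65). Whether tagging altered the mRNA of the tagged gene was not tested.

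In lists of the decay machinery, which count *CCR4* and *DHH1* as members, the shares called higher under totals were 9.52% to 16.7%, against 13.8% over all mRNAs. No member was called lower under totals, against 3.01% of all mRNAs. Of 8 mRNAs of the Ccr4-Not complex tested, *CCR4* was higher in the Ccr4 IP under totals (12.5%), none was lower, and none was called with TMM factors. *CDC39*, for the scaffold subunit, had 513, 352 and 339 counts with Ccr4 and 427, 302 and 269 with Dhh1 (log2 0.24 ± 0.20, adjusted p = 0.41). Of 18 mRNAs of decapping and P-body factors, 3 (16.7%) were higher in the Ccr4 IP and none was lower under totals, with a list median of -0.07 against 0.25 over all mRNAs. Besides *DHH1* these were *DCP2*, the decapping enzyme, with 467, 386 and 335 counts in the Ccr4 IP against 208, 196 and 190 in the Dhh1 IP (log2 0.96 ± 0.19, adjusted p = 6.7e-04), and *EDC2*, an enhancer of decapping. With TMM factors 3 were higher and 3 were lower. Over all mRNAs the shares with TMM factors, for this list and the others, were 7.69% higher and 10.1% lower. Of 21 mRNAs of other deadenylation and 3′ decay factors, *SKI7* and *DIS3* (9.52%) were higher under totals, *SKI7* with 85, 101 and 99 counts with Ccr4 and 53, 54 and 51 with Dhh1. *DIS3*, the catalytic exosome subunit, had 259, 278 and 711 counts in the Ccr4 IP against 268, 199 and 237 in the Dhh1 IP and was not called without Ccr4 IP replicate 3 (log2 0.16 in place of 0.79) or without Dhh1 IP replicate 1 or 2. With TMM factors none of these 21 was higher and 4 were lower, among them the poly(A)-binding protein mRNA *PAB1* (log2 -0.33, adjusted p = 0.042).

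Among mRNAs of RNA-binding regulators, 5 of 24 (20.8%, against 13.8% over all mRNAs) were higher in the Ccr4 IP and 1 (4.17%, against 3.01%) was lower, and with TMM factors 4 were higher and 4 lower. The 5 were *TIS11*, 3 of the Puf family (*PUF2*, *PUF3* and *JSN1*) and *WHI3*, whose protein holds back the G1 cyclin Cln3. *PUF3*, for a protein that binds mRNAs of mitochondrial proteins, had 266, 272 and 253 counts in the Ccr4 IP against 154, 139 and 141 in the Dhh1 IP (log2 0.83 ± 0.20, adjusted p = 0.0038). *GIS2* was the member lower in the Ccr4 IP (log2 -0.64, adjusted p = 0.024). The median of the list, 0.19, was close to that of all mRNAs.

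Iron uptake mRNAs gave the list farthest above the rest. Of 16 mRNAs of the copper and iron regulon, 10 (62.5%, against 13.8% over all mRNAs) were higher in the Ccr4 IP and none was lower. A log2 above 0 was found in 13 of them, and in 3203 of 4617 over all mRNAs. The list median was 1.07 against 0.25 over all mRNAs, and with TMM factors it was 0.84 against 0.02, again with 10 called higher. The members called were *FIT3* and *FIT2*, the siderophore transporter mRNAs *ARN1*, *SIT1* and *ENB1*, the high-affinity iron uptake pair *FET3* and *FTR1*, the transporter mRNAs *FET4* and *SMF3*, and *AFT1*, the transcriptional activator of the regulon. *SIT1* had 909, 841 and 698 counts with Ccr4 and 377, 197 and 214 with Dhh1 (log2 1.61 ± 0.21, adjusted p = 1.7e-06). *AFT1* had 429, 397 and 297 counts in the Ccr4 IP against 225, 145 and 166 in the Dhh1 IP (log2 1.03). In neither did the groups overlap. The other 6 members, *AFT2*, *FET5*, *CTR1*, *FRE1*, *MAC1* and *CUP2*, did not pass the test. *CTR1*, the copper transporter, had 133, 130 and 135 counts with Ccr4 and 241, 129 and 125 with Dhh1. *FRE1*, *MAC1* and *CUP2* had a log2 of -0.06, 0.58 and -0.12. *FIT2* and *FIT3* also stand in the list of cell wall mannoproteins, in which 7 of 22 (31.8%) were higher and 1 lower. That list had 7 higher and 4 lower with TMM factors, and its median, 0.18, was below that of all mRNAs. *TIR1* of that list had 123, 158 and 184 counts in the Ccr4 IP against 39, 35 and 47 in the Dhh1 IP, with 61 to 107 in the UT IP.

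Medians above that of all mRNAs were also found for nitrogen catabolite repression, for gluconeogenesis, and for hexose transport and glucose repression. The phosphate response (median log2 0.08) and the respiratory chain (0.02) lay below the 0.25 over all mRNAs. Of 20 mRNAs of nitrogen catabolite repression and the retrograde response, 9 (45%, against 13.8% over all mRNAs) were higher in the Ccr4 IP and none was lower (median log2 0.81). With TMM factors the median was 0.60, with 6 called higher and none lower. *PUT2*, which completes proline breakdown, had 271, 244 and 274 counts with Ccr4 and 129, 139 and 100 with Dhh1 (log2 1.07 ± 0.20, adjusted p = 5.0e-04). *MEP3*, an ammonium permease, had 373, 239 and 252 counts in the Ccr4 IP against 142, 141 and 126 in the Dhh1 IP (log2 1.04 ± 0.21). Neither overlapped between the IPs. Only 3 mRNAs of gluconeogenesis and the glyoxylate cycle could be tested, and *CIT2* and *MDH2* were higher. *CIT2*, for peroxisomal citrate synthase, had 741, 616 and 442 counts with Ccr4 and 314, 250 and 246 with Dhh1 (log2 1.12 ± 0.19, adjusted p = 1.8e-04). Of 18 mRNAs of hexose transport and glucose repression, 3 (16.7%, near the share over all mRNAs) were higher and 1 was lower, and with TMM factors 2 and 1. The repressor *MIG2* was among those higher, with 437, 330 and 295 counts in the Ccr4 IP against 109, 64 and 101 in the Dhh1 IP (log2 1.91 ± 0.22). The transporter *HXT3* was higher (log2 0.73) and *HXT2* lower (log2 -0.63, adjusted p = 0.041), but *HXT2* overlapped between the IPs.

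Amino acid permease mRNAs divided between the IPs, with 5 of 18 (27.8%, against 13.8% over all mRNAs) higher in the Ccr4 IP and 1 (5.56%, against 3.01%) lower under totals, and 4 higher and 3 lower with TMM factors. The general permease *GAP1* had 98, 83 and 72 counts with Ccr4 and 27, 25 and 15 with Dhh1 (log2 1.84 ± 0.31, adjusted p = 7.1e-05). The broad-range permease *AGP1* had 247, 186 and 178 counts in the Ccr4 IP against 76, 59 and 53 in the Dhh1 IP (log2 1.65 ± 0.23). *SAM3* was the member lower, and *BAP2*, the most counted member, had 959, 756 and 700 counts with Ccr4 and 942, 735 and 755 with Dhh1. In the phosphate response 3 of 17 (17.6%) were higher and 2 lower under totals, and 2 were higher and 5 lower with TMM factors. There *VTC1*, for a subunit of the polyphosphate polymerase, had 602, 603 and 466 counts in the Ccr4 IP against 1238, 890 and 876 in the Dhh1 IP (log2 -0.87 ± 0.18, adjusted p = 0.0010), while *PHM6* was higher (log2 0.96, adjusted p = 0.0066). *PHO84*, the main phosphate transporter, was at 2968, 2138 and 2063 counts with Ccr4 and 2542, 1952 and 1982 with Dhh1.

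Lists of regulators had shares higher in the Ccr4 IP above the 13.8% over all mRNAs under totals, where 3203 of 4617 mRNAs had a log2 above 0. Of 33 zinc cluster transcription factors, 9 (27.3%) were higher, none was lower and 32 had a log2 above 0. With TMM factors 7 were higher and none was lower. *PDR3*, an activator of drug resistance genes, had 476, 365 and 214 counts in the Ccr4 IP against 129, 63 and 101 in the Dhh1 IP (log2 1.80 ± 0.25, adjusted p = 7.7e-06). *HAP1*, the heme-responsive activator and the most counted member, had 925, 707 and 701 in the Ccr4 IP against 505, 403 and 393 in the Dhh1 IP (log2 0.81 ± 0.18). Of 31 mRNAs of cyclins and cell cycle regulators, 8 (25.8%) were higher and none was lower, among them the G1 cyclin *CLN3* with 412, 333 and 491 counts with Ccr4 and 202, 214 and 174 with Dhh1 (log2 1.03 ± 0.19). With TMM factors 6 were higher and 2 lower. In the cell wall integrity pathway 6 of 20 (30%) were higher and none was lower under totals, and 4 were higher and 3 lower with TMM factors, with the sensor *MTL1* at 83, 71 and 99 counts in the Ccr4 IP against 28, 25 and 21 in the Dhh1 IP. In autophagy 5 of 25 (20%) were higher, of which *ATG9* (log2 1.48 ± 0.30) was the farthest, and with TMM factors 1 was. Of 11 mRNAs of ribonucleotide reductase and the DNA damage checkpoint, 5 (45.5%) were higher under totals and 3 with TMM factors. *RNR2*, for a reductase subunit, had 605, 512 and 423 counts with Ccr4 and 260, 242 and 254 with Dhh1 (log2 0.99 ± 0.19, adjusted p = 4.1e-04), and the Dhh1 IP was close to the 277 to 283 counts of the UT IP.

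Cytosolic ribosomal protein mRNAs formed the list farthest below the rest. None of 119 was higher in the Ccr4 IP and 35 (29.4%, against 3.01% over all mRNAs) were lower, with a median log2 of -0.40 against 0.25 over all mRNAs. With TMM factors 55 were lower, none was higher, and the median was -0.63 against 0.02. *RPL3*, the member with the most counts, had 3747, 3195 and 3129 counts in the Ccr4 IP against 5376, 4022 and 4297 in the Dhh1 IP (log2 -0.47 ± 0.14, adjusted p = 0.016), against 3603 to 4045 in the UT IP. *RPL9A* had 1014, 907 and 981 counts with Ccr4 and 2223, 1692 and 1871 with Dhh1 (log2 -1.03 ± 0.16), against 1285 to 1518 in the UT IP. In *RPL9A* the groups did not overlap, and the UT IP lay between them. Its paralog *RPL9B* is nearly identical, so their counts may not be separate. Ribosomal proteins of the mitochondrion had no such share. Of 70, 10 (14.3%, close to the 13.8% over all mRNAs) were higher in the Ccr4 IP and 1 was lower, with a median of 0.40, and with TMM factors 2 were called higher and none lower. *MRPL16* had 98, 93 and 54 counts in the Ccr4 IP against 31, 40 and 39 in the Dhh1 IP (log2 1.10 ± 0.30, adjusted p = 0.0095).

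The lists of translation factors and of the small subunit processome also had medians below that of all mRNAs. Their shares lower under totals were smaller than the 29.4% of the cytosolic ribosomal proteins. These shares were not set beside mRNAs of like input level. Of 32 translation factor mRNAs, 3 (9.38%, against 3.01% over all mRNAs) were lower in the Ccr4 IP and 1 was higher, with a median of -0.33, and with TMM factors 21 were lower and 1 was higher. *YEF3*, for elongation factor 3, had 7705, 7592 and 6910 counts with Ccr4 and 12142, 9301 and 9307 with Dhh1 (log2 -0.50 ± 0.12, adjusted p = 0.0036). *TEF4*, which hosts a snoRNA in its intron, had 97, 67 and 66 counts in the Ccr4 IP against 168, 152 and 129 in the Dhh1 IP (log2 -0.99 ± 0.24). The factor that went the other way was *ANB1*, the eIF5A gene expressed when oxygen is short, with 177, 112 and 89 counts with Ccr4 and 27, 39 and 35 with Dhh1 (log2 1.83 ± 0.29). The aerobic copy *HYP2* had 1195, 1059 and 1020 counts in the Ccr4 IP against 1964, 1377 and 1456 in the Dhh1 IP (log2 -0.58 ± 0.16, adjusted p = 0.013). The 2 copies thus differed in opposite directions, each without overlap, although *HYP2* was not called without Dhh1 IP replicate 1 or 3. In the small subunit processome 4 of 39 (10.3%) were lower and none was higher under totals, and 10 were lower with TMM factors. The 4 were *NOP58*, *NOP1*, *NOP56* and *SNU13*, all of them proteins of the snoRNA particles.

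**Figure D3:**
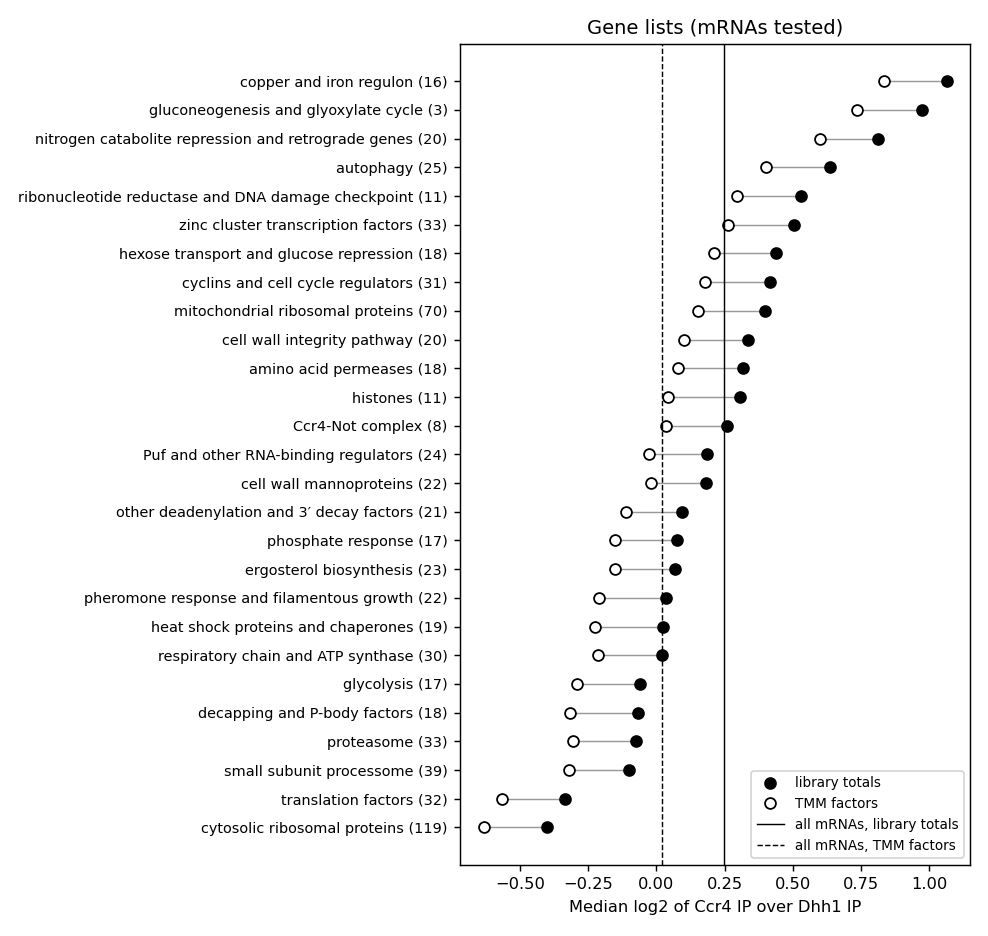
Median log2 of Ccr4 IP over Dhh1 IP in 27 gene lists, with library totals (filled) and with TMM factors (open); the number of mRNAs tested is in parentheses and the vertical lines mark the medians over all mRNAs. The copper and iron regulon lies highest at 1.07 (0.84 with TMM factors) and the cytosolic ribosomal proteins lowest at -0.40 (-0.63).

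Metabolic and housekeeping lists were mixed. In glycolysis 3 of 17 (17.6% each, against 13.8% and 3.01% over all mRNAs) were higher and 3 lower under totals, and 2 and 8 with TMM factors. *PDC1*, pyruvate decarboxylase, had 17384, 14669 and 13977 counts with Ccr4 and 25875, 19081 and 18988 with Dhh1 (log2 -0.50 ± 0.11, adjusted p = 0.0013), while *GLK1*, glucokinase, was higher (log2 0.83 ± 0.22, adjusted p = 0.0077). *GPM1*, called higher, had 5686, 3747 and 17452 counts in the Ccr4 IP against 4885, 4024 and 3825 in the Dhh1 IP, and 15226 of the 17452 lay in the 3′ segment. Without Ccr4 IP replicate 3 its log2 was 0.12 in place of 1.05. The histone mRNA *HHF1* behaved alike, with 981, 790 and 3545 counts with Ccr4 and 980, 709 and 768 with Dhh1, of which 3023 of the 3545 lay in the 3′ segment, and a log2 of 0.08 without the same library in place of 1.08. Of 11 histone mRNAs 2 were called higher (18.2%, against 13.8% over all mRNAs), the other being *HHT1* (log2 0.88 ± 0.18). In heat shock proteins and chaperones 5 of 19 (26.3%) were higher and 2 (10.5%) lower under totals, but 3 were higher and 6 lower with TMM factors. The mitochondrial disaggregase *HSP78* had 414, 210 and 192 counts in the Ccr4 IP against 126, 74 and 109 in the Dhh1 IP, and the cytosolic chaperone *HSC82* had 2485, 1959 and 1664 with Ccr4 and 3901, 2643 and 2626 with Dhh1 (log2 1.35 and -0.61, adjusted p = 3.8e-04 and 0.0088). Of 33 proteasome mRNAs the activator *RPN4* was higher and the assembly factor *UMP1* lower (3.03% each, against 13.8% and 3.01% over all mRNAs). With TMM factors none was higher and 9 were lower. Of 23 mRNAs of ergosterol synthesis none was higher, and *ERG10* and *ERG11* (8.70%, against 3.01% over all mRNAs) were lower. Of 30 mRNAs of the respiratory chain none was higher and 1 (3.33%) was lower. With TMM factors 5 mRNAs of ergosterol synthesis and 4 of the respiratory chain were lower, and none was higher. In pheromone response and filamentous growth 3 of 22 (13.6%, the share over all mRNAs being 13.8%) were higher and 3 lower, with *STE5*, *STE7* and *PHD1* higher and *BAR1* among those lower, and with TMM factors 3 were higher and 6 lower. Calls lost when 1 library was left out were those of *RPN4* (without Ccr4 IP replicate 2 or Dhh1 IP replicate 2), *UMP1* (without Ccr4 IP replicate 1 or Dhh1 IP replicate 1 or 2), *ERG10* (without Dhh1 IP replicate 1 or 3), *ERG11* (without any of 4 libraries), *STE5* (without Dhh1 IP replicate 3), *STE7* and *GLK1* (without Ccr4 IP replicate 1 or Dhh1 IP replicate 2) and *HSC82* (without Dhh1 IP replicate 1).

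The difference varied with abundance. Across 4617 mRNAs the log2 of Ccr4 IP over Dhh1 IP correlated with the log2 level in the inputs, which enter neither IP, at a Pearson r of -0.30 and a Spearman rho of -0.29, a description across genes that share their libraries. When mRNAs were divided by input level into 5 bins of 923 or 924, the median log2 was 0.45 in the lowest bin, then 0.35, 0.25 and 0.21, and -0.02 in the highest. With TMM factors the same medians were 0.23, 0.12, 0.02, -0.01 and -0.24. The calls in favour of the Dhh1 IP lay mostly at the top, 99 of 139 in the highest bin (10.7% of its mRNAs) and 2 in the lowest (0.22%). The calls in favour of the Ccr4 IP took 11.5% to 15.6% of every bin. With TMM factors the highest bin of 924 mRNAs had 308 lower and 64 higher, and the lowest had 8 lower and 70 higher. The gene lists were set beside all mRNAs, not beside mRNAs of like input level. Under totals the median input level was 2.11 CPM in mRNAs higher in the Ccr4 IP and 11.9 CPM in those lower. Over all mRNAs it was 2.20 CPM.

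Levels over the UT IP, from a fit of all 12 IP libraries, put the calls on a common scale. The 2 sets of values share the UT IP libraries and are given side by side only. The mRNAs were called from the same Ccr4 IP and Dhh1 IP libraries, so the direction of the difference within each set was fixed by the calls. In the 635 mRNAs higher in the Ccr4 IP the median log2 over the UT IP was 1.90 for the Ccr4 IP and 0.88 for the Dhh1 IP. In the 139 lower ones it was -0.04 for the Ccr4 IP and 0.67 for the Dhh1 IP, and over all mRNAs it was 1.24 for the Ccr4 IP and 0.94 for the Dhh1 IP. None of the 635 was below the UT IP in the Ccr4 IP and 14 were in the Dhh1 IP. Of the 139, 74 were below the UT IP in the Ccr4 IP and 1 was in the Dhh1 IP. Over all 4617 mRNAs, 172 were below the UT IP in the Ccr4 IP and 60 were in the Dhh1 IP. The Puf5 IP, which has no part in the comparison, had a median log2 over the UT IP of 0.66 in the mRNAs higher in the Ccr4 IP and 0.28 in those lower, against 0.61 over all mRNAs.

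Noncoding RNAs that passed the test were all higher in the Ccr4 IP when totals set the scale. Spliceosomal snRNAs made up 0.0942% ± 0.0099 of all reads in the Ccr4 IP against 0.0539% ± 0.010 in the Dhh1 IP (SD, n = 3 each, here and for the other classes). The ncRNA class took 0.141% ± 0.0071 with Ccr4 and 0.0937% ± 0.0033 with Dhh1, and snoRNAs took 0.183% ± 0.018 with Ccr4 and 0.127% ± 0.016 with Dhh1. Transcripts of Ty retrotransposons made up 0.369% ± 0.016 in the Ccr4 IP against 0.262% ± 0.014 in the Dhh1 IP. Subtelomeric elements took 0.0162% ± 0.0014 with Ccr4 and 0.0103% ± 0.0012 with Dhh1, and tRNAs took 0.0626% ± 0.0086 with Ccr4 and 0.0486% ± 0.0036 with Dhh1. In these 6 classes every Ccr4 IP library was above every Dhh1 IP library, which gave p = 0.1 in the two-sided exact permutation test, the smallest that 3 libraries against 3 allow, and p = 0.13 after Benjamini-Hochberg adjustment over 8 classes. The mRNA share, 3.70% ± 0.33 in the Ccr4 IP against 3.43% ± 0.36 in the Dhh1 IP, and the rRNA share, 95.4% ± 0.32 with Ccr4 and 96.0% ± 0.39 with Dhh1, overlapped (p = 0.4 and 0.3, exact permutation test). As a share of reads without rRNA the mRNAs turned round, with 80.9% ± 1.5 with Ccr4 and 85.1% ± 0.52 with Dhh1 (p = 0.1, exact permutation test). On that basis the tRNA share overlapped, with 1.37% ± 0.11 in the Ccr4 IP against 1.22% ± 0.19 in the Dhh1 IP (p = 0.3, exact permutation test).

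**Figure D4:**
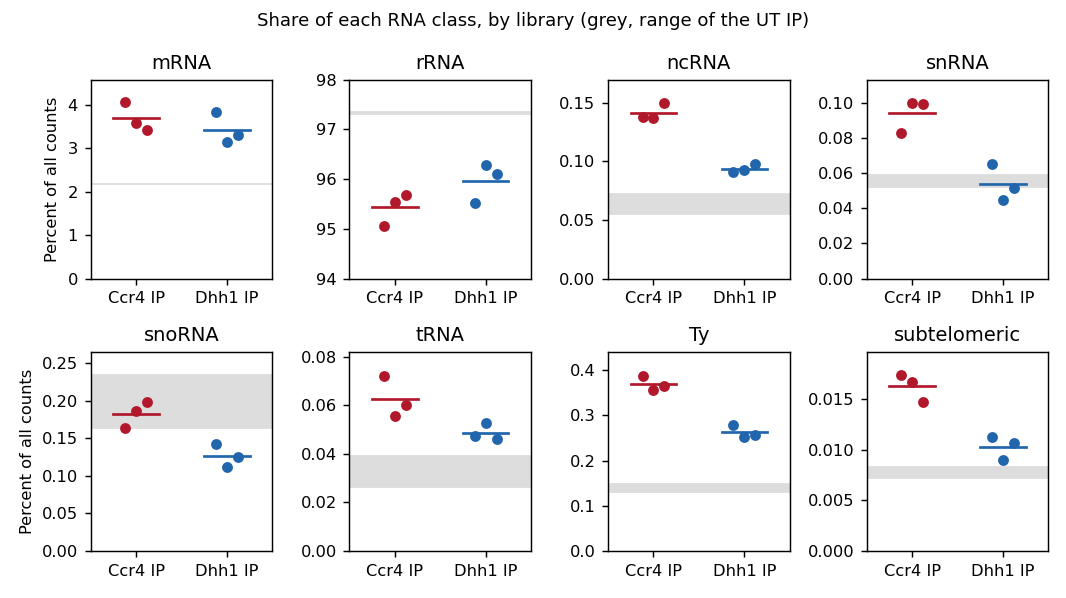
Share of all counted reads, in percent, of 8 RNA classes; points are libraries, lines are means of 3, and the grey band is the range of the 3 UT IP libraries. The rRNA axis does not start at 0. The Ccr4 IP libraries lie above the Dhh1 IP libraries in ncRNA, snRNA, snoRNA, tRNA, Ty and subtelomeric RNAs, and the snoRNA shares of the Ccr4 IP lie near those of the UT IP.

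The spliceosomal snRNAs were the class with the largest ratio of shares, 1.75, and all 5 tested were called (100%, against 14.2% over all RNAs). The U2 snRNA *LSR1* had 11745, 12627 and 12124 counts in the Ccr4 IP against 8106, 5646 and 5887 in the Dhh1 IP (log2 0.87 ± 0.12, adjusted p = 7.6e-06), against 7464 to 9217 in the UT IP. The U4 snRNA *snR14* had 1125, 1211 and 924 counts with Ccr4 and 549, 461 and 473 with Dhh1 (log2 1.11 ± 0.17), against 694 to 734 in the UT IP. In *snR14* the Dhh1 IP was below the UT IP and the Ccr4 IP above it. With TMM factors 3 of the 5 stayed called, *LSR1*, *snR14* and the short form of U5 (*snR7-S*), where 7.82% of all RNAs were higher. The other members, *snR6* and *snR19*, each lost the call under totals without at least 1 library, and *snR19* overlapped between the IPs. DESeq2 called neither *snR19* nor *snR7-S*. In the ncRNA class, *SCR1*, the RNA of the signal recognition particle, had 26675, 24558 and 26552 counts in the Ccr4 IP against 16468, 17045 and 16573 in the Dhh1 IP (log2 0.60 ± 0.09, adjusted p = 2.3e-05). At 1165 CPM with Ccr4 and 768 CPM with Dhh1, *SCR1* held most reads of the class and most of the difference in its share. *SRG1*, the transcript that crosses the *SER3* promoter, had 167, 114 and 100 counts with Ccr4 and 60, 59 and 60 with Dhh1 (log2 1.04 ± 0.26). The RNase P RNA *RPR1* and the RNase MRP RNA *NME1* were called as well (log2 0.64 and 0.52), and the telomerase RNA *TLC1* was not (log2 0.15 ± 0.20). Under totals 4 of the 5 ncRNAs tested were thus higher (80%, against 14.2% over all RNAs). With TMM factors *SRG1* alone was called, with *SCR1* at an adjusted p of 0.052.

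Of 65 snoRNAs, 20 (30.8%, against 14.2% over all RNAs) were higher in the Ccr4 IP and none was lower. A log2 above 0 was found in 55 of them, and in 3203 of the 4617 mRNAs tested. *snR11* had 8771, 6557 and 7534 counts with Ccr4 and 2036, 3400 and 3763 with Dhh1 (log2 1.26 ± 0.17, adjusted p = 3.8e-06), but 8121 to 16626 in the UT IP. The class as a whole took 0.192% ± 0.037 of the reads of the UT IP, so the Ccr4 IP was near the untagged background and the Dhh1 IP below it. At the other end *snR57* had a log2 of -0.79 ± 0.33 (adjusted p = 0.088). With TMM factors 10 snoRNAs were higher and 1 was lower, where 7.82% of all RNAs were higher and 9.64% lower. Of 68 Ty rows tested, 16 (23.5%, against 14.2%) were higher and none was lower, and with TMM factors 6 were higher and 1 lower. At the top of the class *YHL009W-B* had 270, 170 and 614 counts with Ccr4 and 93, 63 and 51 with Dhh1 (log2 2.31 ± 0.31, adjusted p = 3.5e-06), and its log2 was at least 1.63 with any library left out. *YAR009C*, the Ty row with the most counts and named for that after its values were seen, had 42521, 36733 and 37690 counts in the Ccr4 IP against 30550, 26518 and 25707 in the Dhh1 IP (log2 0.47 ± 0.08, adjusted p = 1.9e-04), and was not called with TMM factors (log2 0.24, adjusted p = 0.086). All rows of Ty genes together held 83930, 72724 and 75649 counts in the Ccr4 IP against 59010, 51949 and 49713 in the Dhh1 IP. Much of the Ty share was thus in *YAR009C*. Ty copies share sequence, so a single row may hold reads of others. The Ty gene row *YGR027W-A* had 93, 129 and 109 counts with Ccr4, and the terminal repeat row *YGRWdelta13* had 85, 121 and 106. Different Ty rows may thus hold the same reads, so the rows counted and summed here may not be separate. Of 102 tRNA genes, 13 (12.7%) were higher, close to the 14.2% over all RNAs, and with TMM factors 4 were higher and 3 lower. The glutamate tRNA gene *tE(CUC)I* had 163, 107 and 93 counts with Ccr4 and 42, 55 and 52 with Dhh1 (log2 1.23 ± 0.27, adjusted p = 0.0019). Of 12 subtelomeric rows the Y′ elements *TEL02L-YP* and *TEL04R-YP* were higher (log2 0.68 and 0.69), or 16.7% against 14.2% over all RNAs.

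The position of reads along the mRNA differed without overlap in the sum over mRNAs, while no single mRNA passed the test. Of the mRNA counts of a library, the 3′ segment held 39.5%, 37.1% and 38.8% for Ccr4, and 35.6%, 35.6% and 35.5% for Dhh1. The middle segment took 31.4% ± 0.58 with Ccr4 and 33.1% ± 0.18 with Dhh1, and the 5′ segment 30.1% ± 0.70 with Ccr4 and 31.3% ± 0.16 with Dhh1 (SD, n = 3 each). None of the segments overlapped between the IPs (p = 0.1 each, two-sided exact permutation test, the smallest that 3 against 3 allow, and 0.1 after adjustment over 3 segments). The 3′ difference of 2.91 percentage points fell to 2.22 without RNAs that had 1 library more than 3 times above the next, and to 1.55 without the 100 mRNAs with the most counts. Both subsets were chosen after the values had been seen. As the median over the 3225 mRNAs that averaged 50 counts or more, the share in the 3′ segment was 38.3%, 36.6% and 36.0% in the Ccr4 IP against 36.1%, 36.1% and 36.4% in the Dhh1 IP, and the groups overlapped. The UT IP had 29.8% ± 0.84 of its mRNA counts in the 3′ segment (SD, n = 3), and the 2 inputs of untagged cells had 33.8% and 35.2%.

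**Figure D5:**
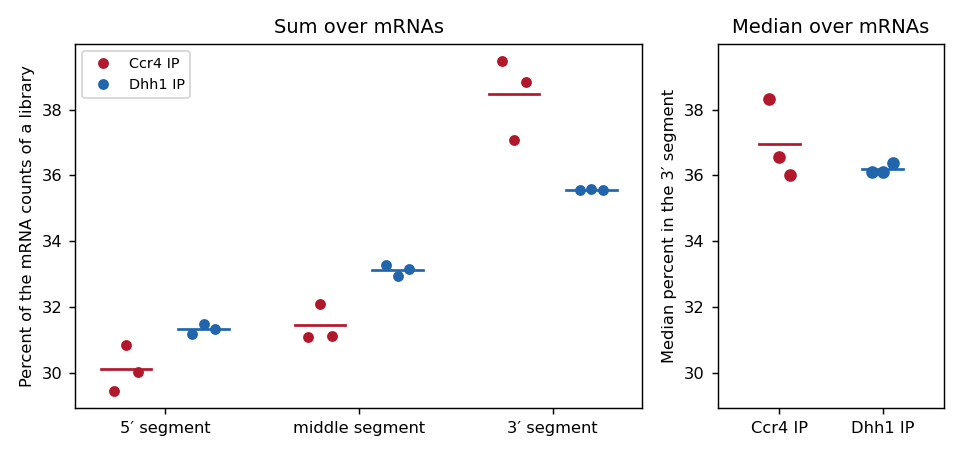
Left, percent of the mRNA counts of a library in each segment of the gene, summed over mRNAs; right, median over 3225 mRNAs of the percent in the 3′ segment. Points are libraries, lines are means of 3, and the axes do not start at 0. In the sum the Ccr4 IP libraries (37.1% to 39.5%) lie above the Dhh1 IP libraries in the 3′ segment, and in the median the groups overlap.

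For single mRNAs, the interaction of segment (3′ against 5′) with IP was tested with edgeR in 4289 mRNAs, with the library as a block. No mRNA passed an FDR under 5% in either direction (0%), while at an unadjusted p under 0.05 there were 205 with relatively more 3′ counts in the Ccr4 IP and 113 with relatively more 5′ counts. With TMM factors within each segment there were again 0 calls. Without Ccr4 IP replicate 3, 14 mRNAs had more 3′ and 1 more 5′ counts in the Ccr4 IP, and without Ccr4 IP replicate 1 there were 2 in each direction. On simulated data the same step recovered 73% of changes with a log2 of 2. The simulation gave every mRNA the same dispersion and had no single high libraries, so this rate may not hold here. *FIT2*, with a difference of 2.33 ± 0.78 between the ends, did not pass (adjusted p = 0.48). The 0 calls thus do not show that large differences are absent. *DHH1* and *CCR4* had a difference of 0.02 ± 0.25 and -0.35 ± 0.28 on the log2 scale between the ends, neither of which passed the test (adjusted p = 0.99 and 0.84).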

How the data were processed

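Per the labels and the study's methods, RNA from anti-myc IPs was fragmented, made into libraries with the SOLiD Total RNA-Seq Kit and mapped by the authors to an earlier build of the yeast genome with SHRiMP. The authors deposited raw counts per RNA and per segment (3 of equal length) of each RNA, between published transcript ends; whether whole-gene counting used strand is not given in the sources used here. Their enrichment table, which holds the authors' own comparisons with the UT IP, served only for the type of each RNA.

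These counts entered edgeR 4.0.16 (R 4.3.3) and its quasi-likelihood F test, with Ccr4 IP and Dhh1 IP libraries only, all counted reads as library size, the default filter, a prior count of 1 and Benjamini-Hochberg adjustment over all RNAs tested. The standard error is the unshrunken log2 divided by the square root of F. The interaction of segment and IP was tested where the outer segments each averaged 5 counts or more. Shares were compared with exact permutation tests over 20 arrangements. Input abundance used a pseudocount of 0.5 counts. Of 4792 mRNAs, 4791 matched a locus tag of RefSeq R64, which gave symbols; its coordinates were not used, since the builds differ, and no sequence was examined.

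Named mRNAs had an FDR under 5% with totals and, in the same direction, with TMM factors, an average of 50 counts or more and no overlap between IPs, and were the 12 highest and 12 lowest by log2. Up to 4 called members of each of 27 gene lists and the member with the most counts, and the 3 highest and 3 lowest of each noncoding class, were also eligible. *EDC2*, *JSN1*, *GIS2*, *ENB1*, *FTR1*, *FET4*, *SMF3*, *AFT1* and the 6 members of the copper and iron regulon that were not called stand outside this rule and were named after their values were seen. The genes, lists and tests were chosen with earlier results of these data known. Simulated data with 200 RNAs changed by a log2 of 1.5 gave 75% recovered and 0 false calls among 4876 RNAs, and the interaction step 6 false calls among 4254 mRNAs. The simulated RNAs all had the same dispersion and no single high libraries, unlike the RNAs measured.

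The results were recomputed with other scalings (TMM, mRNA counts alone, reads other than rRNA, DESeq2 1.42.0), filters, cutoffs, a fit of all 12 IP libraries, a replicate block and leaving out each library. Errors and p-values measure the spread between these libraries. Plots were drawn with matplotlib 3.10.9.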

Additional observations from a re-analysis of the deposited data

How the results depend on the processing

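The 696 RNAs higher and 139 lower in the Ccr4 IP became 382 and 471 with TMM factors, 345 and 443 with DESeq2, 442 and 406 with totals without rRNA, and 606 and 329 with totals over mRNAs. At an FDR under 1% they were 316 and 51, and with a change of more than 2-fold in addition 223 and 14. Leaving out each library in turn gave 295 to 926 higher and 66 to 149 lower. The replicate numbers did not pair the libraries (correlations of deviations of -0.03, 0.001 and -0.004), and the fit with a replicate block called 822 and 187. Other filters, the fit of all 12 IP libraries (575 and 147) and leaving out RNAs with a single high library (675 and 137, chosen after the values were seen) stayed within 1.5 times. Of the 24 mRNAs named first, 24 were called with TMM factors, as the rule for naming them required, 22 with DESeq2 (not *MSO1* and *MTE1*), 24 with the replicate block and 22 to 24 without a library.

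The mRNA share of reads, 0.27 percentage points higher in the Ccr4 IP, reversed to -4.22 without rRNA; the other class differences kept their direction, but the tRNA groups overlapped without rRNA. With TMM factors, leaving out each library gave 213 to 433 higher and 282 to 527 lower. Under totals, calls of *CCR4*, *RPL3*, *HYP2*, *MRPL16*, *HXT2*, *HXT3*, *PHM6*, *SKI7*, *WHI3*, *NOP56*, *SNU13*, *NME1*, *snR6*, *snR19* and *TEL04R-YP* were each lost without at least 1 library. Without a library the class differences were 0.083 to 0.47 for mRNA, -0.76 to -0.36 for rRNA, 0.043 to 0.050 for ncRNA, 0.036 to 0.046 for snRNA, 0.049 to 0.066 for snoRNA, 0.0092 to 0.017 for tRNA, 0.098 to 0.12 for Ty and 0.0053 to 0.0067 for subtelomeric rows. The 3′ share difference was 2.39 to 3.61 without a library and 0.77 as the median over mRNAs, the middle -2.01 to -1.50 and the 5′ -1.59 to -0.89. The interaction gave 0 to 14 calls for more 3′ and 0 to 2 for more 5′. The correlation with abundance was -0.36 in mRNAs with at least 50 counts and -0.31 to -0.27 without a library. Medians of 13 of 27 lists lay above that of all mRNAs with totals, TMM factors and DESeq2, and 11 to 14 without a library. Relative to all mRNAs, 3 list medians changed sign without a library. The Ccr4-Not list ranged over -0.053 to 0.053 (below 0 without Ccr4 IP replicate 1, at -0.026, or Dhh1 IP replicate 2), the RNA-binding regulators over -0.12 to 0.041 (above 0 without Dhh1 IP replicate 1), and histones over -0.16 to 0.12 (below 0 without Ccr4 IP replicate 1). The cause of these changes was not tested.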

Other observations

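The lists here were put together after the values had been seen, so their counts are descriptions only. Enzymes of branched-chain amino acid synthesis lay mostly on the side of the Dhh1 IP, with 6 of 11 mRNAs (54.5%, against 3.01% over all mRNAs) lower in the Ccr4 IP and 1 higher under totals, and 8 lower and none higher with TMM factors. *ILV3*, for the dehydratase of isoleucine and valine synthesis, had 638, 537 and 691 counts in the Ccr4 IP and 1314, 1180 and 1217 in the Dhh1 IP (log2 -1.02, adjusted p = 7.0e-05). *ILV2*, *LEU4* and *LEU9* had log2 values of -0.71, -0.56 and -0.75, beside *LEU1* and *BAT1*. The exception was *BAT2*, the cytosolic aminotransferase, with 671, 592 and 563 counts in the Ccr4 IP and 411, 434 and 354 in the Dhh1 IP (log2 0.57, adjusted p = 0.022). *BAT2* did not pass the test with TMM factors (log2 0.34, adjusted p = 0.083).

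Pleiotropic drug resistance mRNAs lay on the side of the Ccr4 IP, with 7 of 11 (63.6%, against 13.8% over all mRNAs) higher and none lower under totals and with TMM factors. *PDR5*, for the main multidrug transporter, had 12714, 10870 and 10462 counts in the Ccr4 IP and 6597, 4151 and 3989 in the Dhh1 IP (log2 1.18, adjusted p = 4.1e-07), against 2909 to 3655 in the UT IP. *SNQ2* and *YOR1*, for further transporters of the group, had log2 values of 0.66 and 0.79. *PDR1*, the activator that acts beside *PDR3*, had 264, 223 and 206 counts in the Ccr4 IP and 253, 141 and 141 in the Dhh1 IP (log2 0.35, adjusted p = 0.27). Whether the strains differ in the level of these mRNAs was not tested, as no input of the tagged strains was analysed.

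Of 6 mRNAs of signal recognition particle proteins none passed the test under totals and 1 was lower with TMM factors, with a median log2 under totals of -0.20, while the RNA of the particle, *SCR1*, was higher in the Ccr4 IP. Of 10 mRNAs of sexual agglutination and a-factor, 3 (30%, against 3.01%) were lower in the Ccr4 IP and none was higher under totals, and 6 were lower with TMM factors. Of 9 mRNAs of proline and arginine use, 4 (44.4%, against 13.8%) were higher and none was lower under totals and with TMM factors.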
